A study of Homo sapiens with 4 samples.

Results

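The messenger RNAs of zinc finger genes named ZNF and a number were examined as targets of the helicase DHX36. Members were the rows of the gene table whose name was ZNF, a number and at most 1 further letter, and that held at least 100 crosslinked reads with FH-DHX36-E335A. The table of 26490 rows held 529 such ZNF rows, and 234 of them reached 100 reads. Across all rows of the table, 26.0% reached that number. A further 94 ZNF rows had 1 to 99 FH-DHX36-E335A reads, and 201 had none listed. Because the members were selected on their FH-DHX36-E335A reads, values in that PAR-CLIP are given as a description and without a test.

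Most ZNF genes encode proteins of the C2H2 zinc finger class, in which a pair of cysteines and a pair of histidines hold a zinc ion. Each finger can contact a few bases of DNA or RNA. Fingers often stand in long tandem arrays joined by a short conserved linker, and many of these proteins start with a KRAB box that recruits a corepressor and silences chromatin. A large part of the family arose by tandem duplication on chromosome 19, so that many neighbouring genes there have similar coding sequences. DHX36 is a helicase that binds and unwinds G-quadruplexes, stacked structures formed where an RNA holds several nearby runs of guanines.

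PAR-CLIP crosslinks a protein to RNA that contains 4-thiouridine, and the crosslinked bases read as T-to-C changes in the recovered RNA fragments. It was carried out in HEK293, a human embryonic kidney cell line, with 2 stable lines that carried a tetracycline-inducible transgene with an HA and a FLAG tag. One line expressed FH-DHX36, built from isoform 2, and the other expressed FH-DHX36-E335A, the helicase-dead mutant built from isoform 1, so the mutation and the isoform cannot be told apart here. Both lines received 500 ng/ml tetracycline for 15 h and 365 nm light for 5 min, and both kept their own DHX36 gene. There were 2 replicates per line, but the table gives 1 value per line, so no replicate spread and no test between the lines could be had. The FH-DHX36-E335A PAR-CLIP held 4.05 times as many crosslinked reads as the FH-DHX36 PAR-CLIP. A gene listed at 0 is 1 for which no cluster was listed.

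The 234 members carried 331361 crosslinked reads in 1938 clusters in the FH-DHX36-E335A PAR-CLIP, which was 3.79% of all its reads. In the FH-DHX36 PAR-CLIP they carried 58777 reads in 459 clusters, or 2.72% of all reads. Reads per member ranged from 100 to 74361 with a median of 408.5 for FH-DHX36-E335A, and a member had 1 to 34 clusters. A few mRNAs held much of this binding. The 10 members with the most reads held 47.8% of the members' FH-DHX36-E335A reads, and the top 10 in FH-DHX36 held 50.5%. Next to the minimum, ZNF853 had 100 reads and both ZNF222 and ZNF426 had 101, while ZNF101 had 99 and both ZNF2 and ZNF354B had 97.

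ZNF146 (chr19:36705504-36729673, plus strand of GRCh37), which encodes a protein made almost only of fingers, was the member with the most FH-DHX36-E335A reads. Its 74361 reads ranked at 1 among all rows of the table. Of these, 70237 lay in the 3'UTR, 1848 in the 5'UTR and 690 in the CDS. In FH-DHX36 it had 4767 reads, of which 4428 lay in the 3'UTR and 0 in the CDS. The mRNA was thus bound mostly in its 3'UTR in both lines.

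ZNF711 (chrX:84498997-84528368, plus strand), a transcriptional regulator linked to X-linked intellectual disability, was second with 27897 FH-DHX36-E335A reads. Its binding was spread wider, with 6536 reads in the CDS, 10376 in the 3'UTR and 10486 outside the 5'UTR, CDS, 3'UTR and intron categories. In FH-DHX36 it had 2862 reads, with 658 CDS and 899 3'UTR reads. ZNF711 also held more FH-DHX36-E335A CDS reads than any other member.

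ZNF664, ZNF24 and ZNF76 followed ZNF146 and ZNF711 in 3'UTR reads. ZNF664 (chr12:124456392-124499986, plus strand) had 10345 of 12436 FH-DHX36-E335A reads in the 3'UTR and 430 of 530 in FH-DHX36. ZNF24 (chr18:32912191-32925446, minus strand), a transcriptional repressor with 4 fingers found, had 6204 of 6295 there and 175 of 235 in FH-DHX36. ZNF76 (chr6:35226686-35263762, plus strand) had 5869 of 5984 and 1273 of 1535. All of them were mostly 3'UTR-bound in both lines, although ZNF24 had 60 of its FH-DHX36 reads in the CDS.

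The 3'UTRs of these and of the most 3'UTR-bound members were searched for G runs, defined as at least 4 runs of 2 or more G separated by 1 to 7 bases, on the sense strand. The most 5' match of at most 30 bases is shown for 8 of these members, since these are the letters that a G-quadruplex would need. Capitals mark the G runs, and positions are those of GRCh37, each in the last exon of the canonical transcript.
ZNF146, chr19:36728699-36728724, plus strand: GGcatcaGGaaatgaGGaaataatGG
ZNF664, chr12:124498362-124498374, plus strand: GGatGGtaGGaGG
ZNF24, chr18:32915948-32915967, minus strand: GGaGGGGGaGGaGGactcGG
ZNF76, chr6:35263122-35263144, plus strand: GGtGGccacataGGtctctGGGG
ZNF629, chr16:30792922-30792937, minus strand: GGtagtGGagtGGaGG
ZNF445, chr3:44487823-44487846, minus strand: GGagactccGGcccctaGGagtGG
ZNF576, chr19:44103432-44103459, plus strand: GGtgacGGGtGGctctgtGGctGGtaGG
ZNF75A, chr16:3368484-3368507, plus strand: GGaatcatGGGGGaaacGGGttGG
Such matches were common and are a description, not binding sites. They were found in the 3'UTR of 74.9% of the 231 members matched to a canonical coding transcript and in 72.7% of the 6269 other genes that had at least 100 FH-DHX36-E335A reads and a transcript. The 3'UTR of ZNF711 held none in this search, and that of ZNF704 held 7, which are not shown. With runs of 3 or more G, a match was found in 15.6% of the members and 16.4% of the other genes. Per kilobase, the members' 3'UTRs held 1.498 matches and those of the other genes 1.56, while the members' CDS held 1.54 against 2.31.

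**Figure D1:**
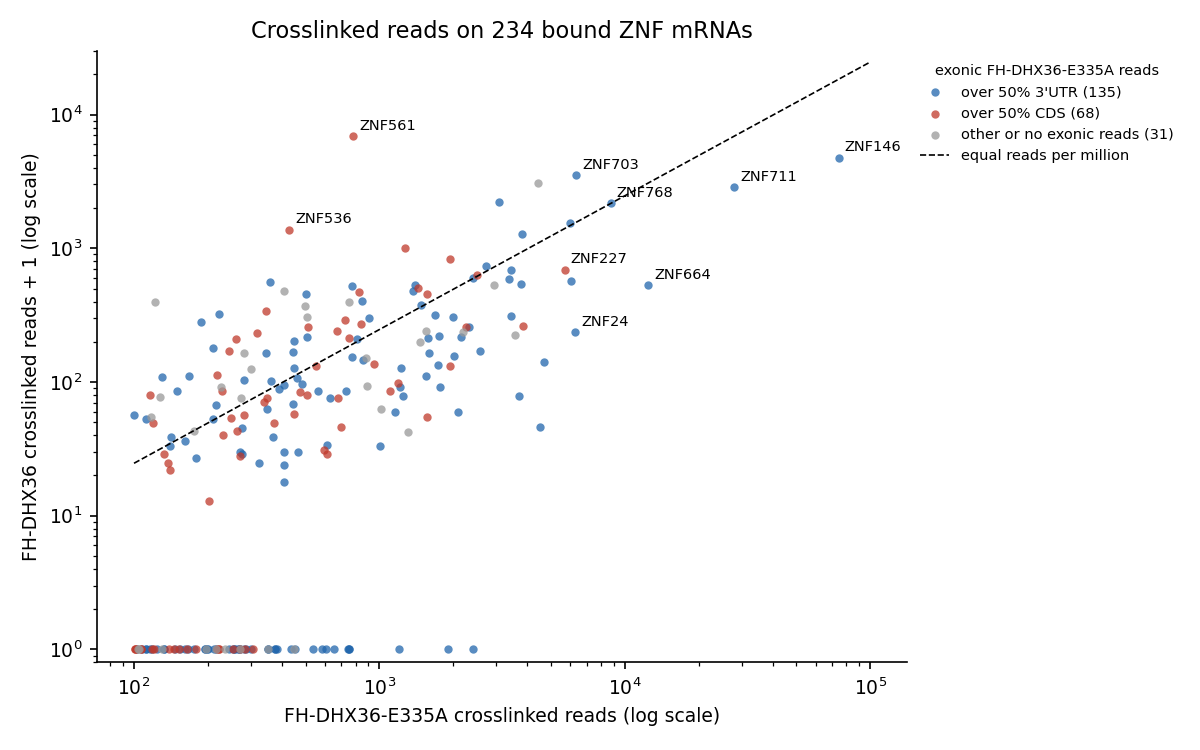
Crosslinked reads of each of the 234 members in the FH-DHX36-E335A PAR-CLIP (x axis, log scale) against those in the FH-DHX36 PAR-CLIP plus 1 (y axis, log scale). Each point is 1 gene, coloured by the region that held over 50% of its exonic FH-DHX36-E335A reads, and the dashed line marks equal depth-scaled reads. ZNF146 and ZNF711 lie farthest to the right, ZNF561 and ZNF536 lie far above the line, and the row at the bottom holds the 75 members with no FH-DHX36 cluster.

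Reads and clusters gave different pictures of CDS against 3'UTR binding. Exonic means the sum of 5'UTR, CDS and 3'UTR. In FH-DHX36-E335A the 3'UTR took 76.8% of the members' exonic reads and the CDS 18.3%. In FH-DHX36 the CDS took 46.1% and the 3'UTR 45.3%. Single mRNAs moved both values. Without ZNF146, 24.98% of the FH-DHX36-E335A reads lay in the CDS, and without ZNF561, 36.97% of the FH-DHX36 reads did. The other genes with at least 100 FH-DHX36-E335A reads had 22.9% and 37.2% in the CDS, so the members stood below them in FH-DHX36-E335A and above them in FH-DHX36. Without ZNF146 the members stood above in FH-DHX36-E335A, and without ZNF561 they stood 36.97% against 37.17% in FH-DHX36. With both left out the members had 24.7% and 41.7%, above the other genes in both PAR-CLIPs.

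Counted by clusters, each of which weighs the same whatever its depth, the CDS share of the members had overlapping intervals in both PAR-CLIPs. It was 42.3% (95% Wilson interval 39.9 to 44.8) of 1587 exonic clusters for FH-DHX36-E335A and 46.2% (41.1 to 51.4) of 355 for FH-DHX36. In the other genes it was 35.5% (35.1 to 36.0) and 37.4% (36.6 to 38.3). The members' intervals thus lay above those of the other genes in both. The 3'UTR share was 50.7% against 59.6% in the other genes for FH-DHX36-E335A, and 41.4% against 52.5% for FH-DHX36. These intervals cover counting error only, and clusters of 1 mRNA are not independent.

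**Figure D2:**
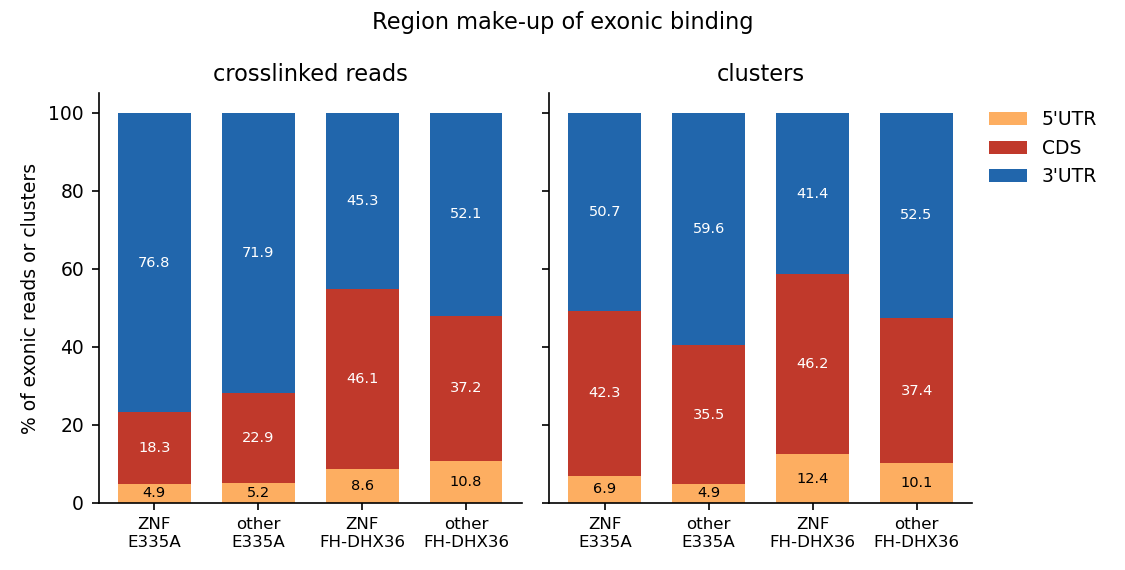
Share of exonic crosslinked reads (left) and of exonic clusters (right) in the 5'UTR, CDS and 3'UTR, in percent, for the 234 members (ZNF) and the 6643 other genes with at least 100 FH-DHX36-E335A reads, in each PAR-CLIP. By clusters the CDS held 42.3% and 46.2% in the members and 35.5% and 37.4% in the other genes, and by reads the members went from 18.3% in FH-DHX36-E335A to 46.1% in FH-DHX36.

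The CDS did not take up more of the transcript in the members than in the other genes. It made up 40.5% of the canonical transcripts of the members with exonic FH-DHX36-E335A clusters and 41.6% of those of the other genes. The observed CDS share of clusters over this share of length was 1.05 (0.99 to 1.11) in the members and 0.85 (0.84 to 0.86) in the other genes. For the 3'UTR it was 0.94 (0.89 to 0.99) and 1.11 (1.10 to 1.12). In FH-DHX36 the CDS value was 1.12 (0.99 to 1.24) against 0.90 (0.88 to 0.92), and the 3'UTR value was 0.78 (0.69 to 0.88) against 0.98 (0.96 to 1.00). The 5'UTR value was 1.21 (1.01 to 1.44) in the members and 1.03 (0.98 to 1.07) in the other genes with FH-DHX36-E335A, and 2.24 (1.69 to 2.93) and 2.12 (2.01 to 2.24) with FH-DHX36. The members' 1.21 became 0.97 with the longest transcript and 0.84 with crosslinked reads. With crosslinked reads in place of clusters, the FH-DHX36-E335A values of the members became 0.45 for the CDS and 1.43 for the 3'UTR, on the other side of 1.

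Per gene, binding was often in a single region. Exonic FH-DHX36-E335A reads were present in 226 members. Over 50% of them lay in the CDS of 68 members, where 27.0% of all genes with at least 100 reads and exonic reads did so, and in the 3'UTR of 135 members, against 65.4% of such genes. These are 30.1% and 59.7% of the members. The CDS held no read in 47 members (20.8%, and 22.6% of the other genes) and the 3'UTR none in 31 (13.7%, and 11.2%). The median member had 25.9% of its exonic reads in the CDS, with quartiles of 4.09% and 57.4%, and the median of the other genes was 18.6%. In FH-DHX36, 137 members had exonic reads, of which 61 had over 50% in the CDS (37.1% of all such genes) and 55 in the 3'UTR (49.1%). These are 44.5% and 40.1% of the members.

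**Figure D3:**
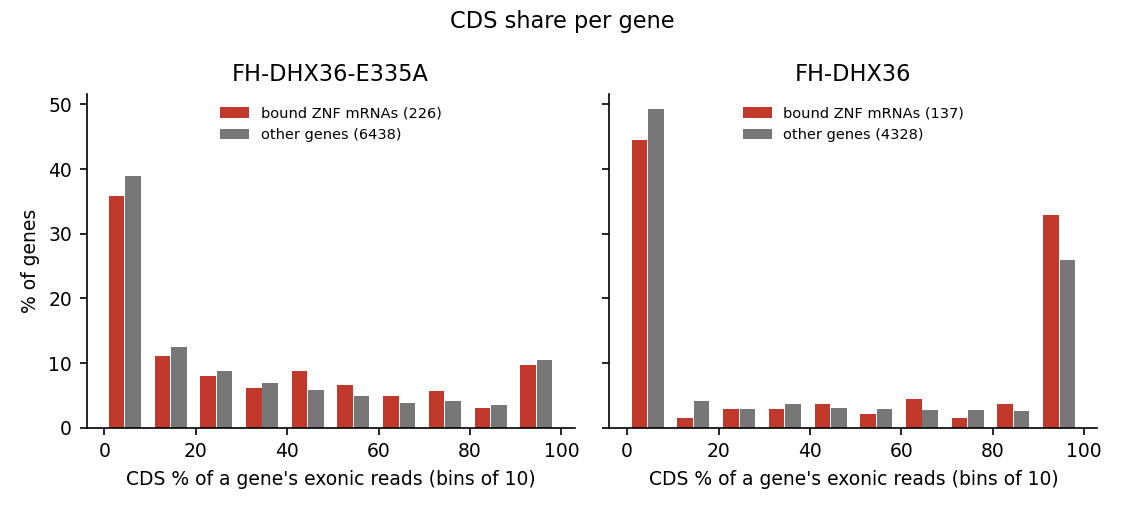
Percent of genes (y axis) by the share of a gene's exonic crosslinked reads that lay in the CDS (x axis, bins of 10 percentage points), for the members and the other genes with exonic reads, in FH-DHX36-E335A (left) and FH-DHX36 (right). The lowest bin is the fullest in both panels, and the highest bin is the second fullest in FH-DHX36. There, all exonic reads lay in the CDS for 40 of 137 members and for 1039 of 4328 other genes.

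The exonic region with the most reads was the same in both lines for 76 of the 103 members with at least 50 exonic reads in each PAR-CLIP, or 73.8%, and for 74.7% of 3273 such other genes. Of the 103 members, 28 had over 50% in the CDS in both (27.2%, and 21.4% of the other genes) and 53 in neither (51.5%, and 59.9%). The CDS share was over 50% in FH-DHX36 alone for 18 (17.5%, and 14.3% of the other genes) and in FH-DHX36-E335A alone for 4 (3.88%, and 4.37%). The members thus lay on the same side of 50% in both lines in 78.6%, and the other genes in 81.4%. The CDS share was higher in FH-DHX36 for 49 members, lower for 35 and equal for 19. Across all genes with as many reads in both it was higher in FH-DHX36 for 43.3%, and in the members for 47.6%. The rank correlation between the CDS shares of the members was 0.68 over 103 genes, which share the 2 PAR-CLIPs, and 0.68 over 3273 other genes.

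The members most bound in the CDS were found by CDS reads and by CDS share among the 86 members with at least 500 exonic FH-DHX36-E335A reads. By reads these were ZNF711, ZNF227, ZNF703, ZNF507 and ZNF45. ZNF227 (chr19:44711700-44741421, plus strand), with a KRAB box and 18 fingers found, had 3450 CDS and 1736 3'UTR reads in FH-DHX36-E335A and 338 and 327 in FH-DHX36. ZNF45 (chr19:44416776-44439434, minus strand) had 1157 CDS and 160 3'UTR reads, and in FH-DHX36 426 and 0. ZNF703, a regulator with roles in breast cancer, had 1360 and 3534 in FH-DHX36-E335A but 1599 and 991 in FH-DHX36. ZNF507 had 1203 and 3209, and 41 and 98. ZNF45 was therefore CDS-bound in both lines, while ZNF703 had more CDS than 3'UTR reads in FH-DHX36 alone.

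By CDS share, ZNF561 was first with 94.99%, followed by ZNF224 with 94.8%, ZNF155 with 92.1%, ZNF326 with 88.0% and ZNF234 with 83.6%. ZNF224 encodes a KRAB repressor and ZNF326 a nuclear protein linked to splicing. In FH-DHX36 the CDS held 30 of 30 exonic reads of ZNF224, 112 of 130 of ZNF155, 18 of 18 of ZNF326 and 56 of 84 of ZNF234. ZNF326 had a further 222 of its 240 FH-DHX36 reads outside the 4 categories. No member with 500 exonic reads had all of them in the CDS, whereas 5 had all of them in the 3'UTR. The 5 members with all of them in the 3'UTR were ZNF629 (1319 exonic reads), ZNF445 (1407), ZNF576 (804), ZNF704 (907) and ZNF75A (532). In FH-DHX36 ZNF629, ZNF445 and ZNF576 again had all of their exonic reads in the 3'UTR (220, 224 and 126), ZNF704 had 163 there and 18 in the CDS, and ZNF75A had none in an exon.

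The linker between fingers leaves a recognisable stretch in the CDS, which marks the repeated part of these coding sequences. It is shown for those of the CDS-bound members named above that had it, except ZNF711, which had 1 match. No match was found in the CDS of ZNF703, ZNF507 and ZNF326. The letters searched were ACNGGNGANAANCC on the sense strand, where N is any base, and they are in capitals with 8 bases on each side. Each stretch lies in the last exon of its canonical transcript and is the most 5' match of its gene.
ZNF227, chr19:44739614-44739643, plus strand: gaactcatACTGGAGAGAAACCctataaat
ZNF45, chr19:44419092-44419121, minus strand: gagtccacACTGGTGAAAAACCctacaaag
ZNF561, chr19:9721154-9721183, minus strand: gaattcacACAGGAGAGAAGCCttatgaat
ZNF224, chr19:44610984-44611013, plus strand: gagtccacACTGGAGAGAAACCgttcaaat
ZNF155, chr19:44500680-44500709, plus strand: gagtccacACTGGAGAGAAACCattcaaat
ZNF234, chr19:44661008-44661037, plus strand: gaattcatACTGGGGAGAAACCattcaaat
The stretch occurred in the CDS of 73.2% of the 231 matched members and of 0.973% of the 6269 other genes, and a member had up to 25 of them. It did not follow CDS binding within the members. It was found in 76.5% of the 68 members with over 50% of exonic FH-DHX36-E335A reads in the CDS and in 69.9% of the 133 matched members with over 50% in the 3'UTR. Across 224 members the rank correlation of the number of stretches with the CDS share of reads was 0.01.

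The 3'UTR of the mostly CDS-bound members was shorter and held fewer G runs. Its median length was 1518 nt against 2217 nt in the mostly 3'UTR-bound members, while the CDS had medians of 1842 nt and 1713 nt. At least 1 G-run match was present in the 3'UTR of 61.8% of the former and 82.7% of the latter, and per kilobase the matches numbered 1.25 and 1.60. Across 224 members the rank correlation of the CDS share with the number of 3'UTR matches was -0.31 and with 3'UTR length -0.22, a description over genes that share 1 PAR-CLIP. The mostly CDS-bound members also had fewer FH-DHX36-E335A reads, with a median of 310 against 448, and a recovered RNA abundance of 3.44 against 3.12. The part of length and reads in this was not tested.

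Gene position went along with the region bound. Of the 231 matched members, 107 lie on chromosome 19. Their CDS held 49.4% (45.7 to 53.0) of 715 exonic FH-DHX36-E335A clusters, against 36.9% (33.8 to 40.2) of 861 in the members elsewhere, where the CDS makes up 38.0% and 41.9% of transcript length. In FH-DHX36 the values were 46.0% (38.0 to 54.3) and 46.3% (39.8 to 53.0), and thus not apart. Neighbouring members on chromosome 19 less than 500000 bases apart formed 7 groups of at least 5 members, a grouping made after the values had been seen.

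In 2 of these groups most members were CDS-bound. The group from ZNF576 to ZNF180 (chr19:44100544-45004576) holds ZNF45, ZNF155, ZNF224, ZNF227 and ZNF234 named above, and 12 of its 18 members had over 50% of exonic FH-DHX36-E335A reads in the CDS. Its CDS held 70.6% (61.9 to 78.0) of 119 exonic clusters and makes up 49.7% of transcript length. The group from ZNF559 to ZNF562 (chr19:9434448-9785776), which includes ZNF561, had 5 of 6 such members and 72.4% (54.3 to 85.3) of 29 clusters, at 22.4% of length. The group from ZNF146 to ZNF573 followed, with 10 of 21 members and 48.1% (41.7 to 54.5) of 233 clusters, at 35.3% of length. In the remaining 4 groups, 8 of 42 members with exonic reads were so bound in all. The groups were formed by distance alone, and similarity of sequence between their members was not measured. How reads that match several similar genes were placed is not given in the sources used here, so single values within a group are uncertain.

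**Figure D4:**
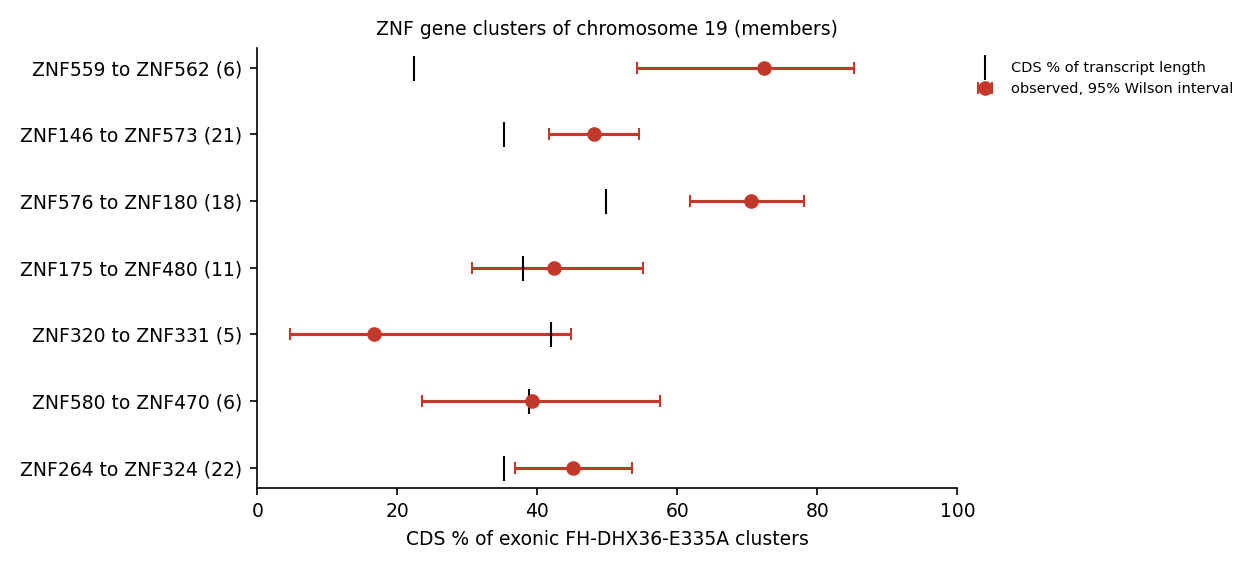
Percent of exonic FH-DHX36-E335A clusters that lay in the CDS (x axis) for the 7 groups of neighbouring members on chromosome 19, named by their first and last gene with the number of members in brackets. Points show the observed share with its 95% Wilson interval, and ticks show the CDS share of canonical transcript length. The groups from ZNF559 to ZNF562 and from ZNF576 to ZNF180 lie at 72.4% and 70.6%, right of their ticks.

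FH-DHX36 clusters were listed for 159 of the 234 members, or 67.9%, where 73.8% of all genes with at least 100 FH-DHX36-E335A reads had one. The 75 members without one had fewer FH-DHX36-E335A reads, with a median of 217 against 630 in the 159. The highest of them was ZNF33A, with 2397 FH-DHX36-E335A reads in 16 clusters, 2162 of these reads in the 3'UTR. Read number went along with detection. FH-DHX36 clusters were listed for 36.54% of the members with 100 to 199 FH-DHX36-E335A reads and for 95.2% of those with at least 1000, and the other genes had 43.2% and 95.4%. Of the ZNF rows under the minimum, 22 of the 94 with 1 to 99 reads and 12 of the 201 with none had an FH-DHX36 cluster, ZNF25 having the most reads of the latter (140).

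Fingers and KRAB boxes were counted in the translated canonical CDS of 229 members. They had 0 to 36 fingers with a median of 10, and a match to a short pattern of the KRAB box core was found in 120. The pattern misses boxes that depart from it and was not tested on known boxes. The 109 members with no match may thus include genes that have a KRAB box. Below, with and without a KRAB box mean only with and without a match. FH-DHX36 clusters were listed for 18 of 18 members with 0 to 2 fingers, 38 of 53 with 3 to 7 and 100 of 158 with 8 or more. In the same order, the median FH-DHX36-E335A reads were 882.5, 410 and 376.5 and the median recovered abundance 8.85, 4.19 and 2.65. FH-DHX36 clusters were listed for 66 of 120 members with a KRAB box match (55.0%) and 90 of 109 without (82.6%). The members with a KRAB box also had fewer FH-DHX36-E335A reads (a median of 346.5 against 482) and a lower recovered abundance (2.51 against 4.02). By FH-DHX36-E335A reads, the counts with and without a KRAB box were 11 of 32 and 8 of 19 from 100 to under 200. In the band of 200 to 499 they were 17 of 44 and 32 of 37. From 500 to under 1000 they were 14 of 18 and 14 of 16, and at 1000 or more 24 of 26 and 36 of 37. The share was lower with a KRAB box in each read band, but the gap was wide only from 200 to 499 reads. By recovered abundance, clusters were listed for 44.4% with a KRAB box and 83.3% without at values under 2, for 60.8% and 78.4% from 2 to 5, and for 62.5% and 85.4% at 5 or more. The share was lower with a KRAB box in each of these abundance bands. Within the bands the median FH-DHX36-E335A reads with and without a KRAB box were 259 and 386.5, 507 and 449, and 379 and 841.5. The part of reads and abundance in this was not tested.

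Among members with a KRAB box match, the CDS held 47.5% (43.9 to 51.2) of exonic FH-DHX36-E335A clusters, and among those without a match 38.2% (35.0 to 41.5). Their CDS makes up 36.7% and 43.9% of transcript length, so the order of the observed shares was opposite to that of length. In FH-DHX36 the shares were 48.2% (39.3 to 57.3) and 44.8% (38.6 to 51.1), with intervals that overlapped. Of the 120 members with a KRAB box, 85 lie on chromosome 19, so position and KRAB box overlap in most of these genes. By fingers, the FH-DHX36-E335A share was 36.9% (30.2 to 44.3) with 0 to 2 and 44.4% (41.4 to 47.4) with 8 or more, with overlapping intervals. In FH-DHX36 it was 63.8% (50.9 to 74.9) with 0 to 2 fingers and 40.8% (34.5 to 47.6) with 8 or more.

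NXPM, the crosslinked reads of a gene scaled to the PAR-CLIP and divided by its RNA abundance, was compared between the PAR-CLIPs in the members with a cluster in both. Over these 159 members the median was 23.2 in FH-DHX36-E335A and 18.2 in FH-DHX36, and NXPM was higher in FH-DHX36 for 67 of them (42.1%), as it was for 40.8% of such other genes. The median was 16.9 over the 234 members in FH-DHX36-E335A, with quartiles of 7.597 and 39.97, and 18.2 over the 159 members with an FH-DHX36 cluster, with quartiles of 7.34 and 42.2. In the other genes the medians were 8.34 and 8.09. With the members lacking a cluster counted as 0, the FH-DHX36 median was 7.49, and that of the other genes was 3.52. The recovered abundance, the denominator of NXPM, had a median of 3.16 in the members and 7.43 in the other genes. The minimum was set on reads, so that at low abundance it admits genes of high NXPM alone, and the members' higher NXPM was not tested.

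NXPM was above 100 for 22 members in FH-DHX36-E335A, or 9.40%, against 6.12% of all genes with at least 100 reads, and for 17 in FH-DHX36, or 7.26%, against 5.12%. Among members whose recovered abundance was 1 or more, FH-DHX36-E335A values were highest for ZNF146 (414.8), ZNF793 (381.6), ZNF480 (264.2), ZNF37A (240.6) and ZNF711 (231.7). Their FH-DHX36 values were 107.7, 145.0, 358.0, 266.8 and 96.3. In FH-DHX36 they were highest for ZNF561 (1712), ZNF480, ZNF37A, ZNF316 (208.4) and ZNF536 (195.9), of which ZNF561, ZNF316 and ZNF536 had 47.7, 44.1 and 15.0 in FH-DHX36-E335A. ZNF480 and ZNF37A were thus high in both, with 1 and 9 FH-DHX36 clusters and a recovered abundance of 1.65 and 1.29. All 478 FH-DHX36 reads of ZNF316 lay outside the 4 categories. All FH-DHX36 exonic reads of ZNF480 (1277) and ZNF37A (742) lay in the 3'UTR, as did 3469 of 3818 and 2531 of 2711 of their FH-DHX36-E335A reads.

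**Figure D5:**
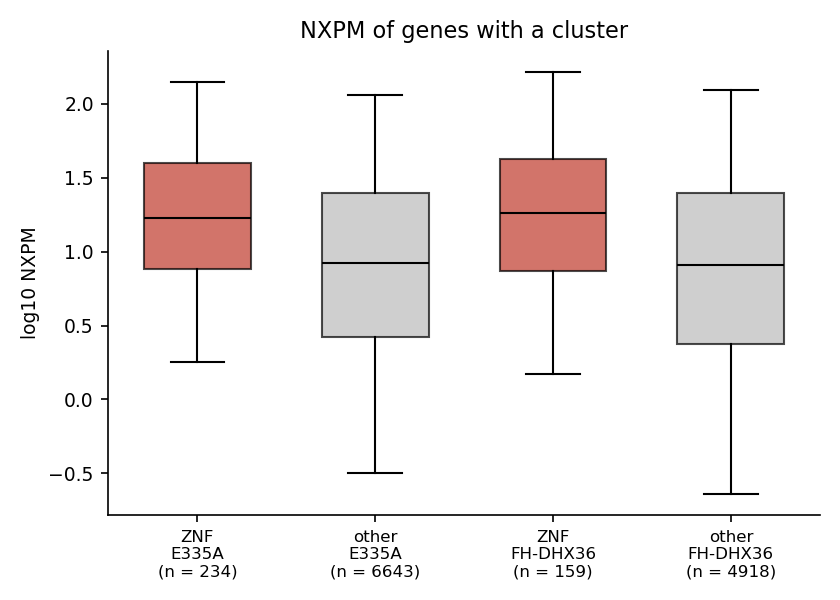
Log10 NXPM (y axis) of genes with a cluster, for the members (ZNF) and the other genes with at least 100 FH-DHX36-E335A reads, in each PAR-CLIP. Boxes span the quartiles with the median as a line, and whiskers reach from the 5th to the 95th percentile. The boxes of the members lie higher in both PAR-CLIPs, with medians of 16.9 and 18.2 on the linear scale against 8.34 and 8.09.

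The regional NXPM values are each scaled to all reads of that region, and thus set a gene against the regional balance of the PAR-CLIP. CDS NXPM was higher than 3'UTR NXPM in 123 of the 226 members with exonic FH-DHX36-E335A reads (54.4%), against 47.0% of all genes with at least 100 reads. In FH-DHX36 it was higher in 68 of 137 (49.6%), against 41.9%. Among members with reads in the region, the median CDS NXPM was 21.6 and the median 3'UTR NXPM 14.2 in FH-DHX36-E335A, and they were 32.7 and 29.0 in FH-DHX36. In the other genes these medians were 8.34 and 8.42, and 11.7 and 14.6. ZNF711 had a CDS NXPM of 320.6 and a 3'UTR NXPM of 161.7 in FH-DHX36-E335A, and 78.0 and 78.7 in FH-DHX36, whereas ZNF146 had 22.7 and 734.9 in the former.

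Scaled to the reads of each PAR-CLIP, the members' binding was compared between the lines as log2 of FH-DHX36-E335A over FH-DHX36 with 1 read added to each. The rule used FH-DHX36-E335A reads, which favours high ratios, and the 75 members without an FH-DHX36 cluster all lie past 2-fold by this measure. The median was 1.24 on the log2 scale in the members and 0.96 in the other genes. A value at least 2-fold higher in FH-DHX36-E335A was found for 127 members, where 49.3% of all genes with at least 100 reads had one, and a value at least 2-fold higher in FH-DHX36 for 31, where 13.9% had one. These are 54.3% and 13.2% of the members. Among members with clusters in both lines the median was 0.29, and among such other genes 0.31.

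Of the 31 members higher in FH-DHX36, 27 had at least 100 FH-DHX36 reads. ZNF561 (chr19:9715356-9731912, minus strand) was the farthest, with 778 reads in FH-DHX36-E335A and 6894 in FH-DHX36, or 35.9-fold more after scaling to depth. Of these, 739 and all 6894 lay in the CDS, and it had 7 clusters in FH-DHX36-E335A and 1 in FH-DHX36. ZNF709 had 122 and 399 reads (13.2-fold), and the 399 all lay in the 5'UTR. ZNF536 (chr19:30715798-31204493, plus strand), a repressor in neuronal differentiation, had 428 and 1379 (13.1-fold), and 1028 of the latter lay outside the 4 categories. ZNF512B had 358 and 555, with 332 and 521 in the 3'UTR, and ZNF691, ZNF746 and ZNF316 were between 4.72-fold and 6.06-fold higher.

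The other 20 of these 27 were between 2.05-fold and 3.95-fold higher. ZNF695, ZNF516, ZNF362, ZNF721, ZNF282 and ZNF598 lay between 3.21-fold and 3.95-fold. ZNF202, ZNF407, ZNF787, ZNF638, ZNF428, ZNF444 and ZNF337 lay between 2.63-fold and 2.98-fold, and ZNF383, ZNF718, ZNF622, ZNF703, ZNF720, ZNF142 and ZNF394 between 2.05-fold and 2.45-fold. ZNF202 and ZNF407 had a single cluster in each line, in the 5'UTR for ZNF202 (499 and 367 reads) and in the CDS for ZNF407 (316 and 232 reads). ZNF787 had 2374 3'UTR reads and 354 CDS reads in FH-DHX36-E335A and 767 and 610 in FH-DHX36. ZNF428 had 4446 and 3089 reads, of which 115 and 1844 lay in the CDS and 4155 and 245 outside the 4 categories.

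In the other direction, among the members with the most FH-DHX36-E335A reads, ZNF507 was 8.36-fold, ZNF24 6.61-fold and ZNF664 5.79-fold higher after scaling to depth in FH-DHX36-E335A. ZNF146 was 3.85-fold, ZNF793 2.63-fold, ZNF711 2.41-fold and ZNF227 2.03-fold higher. ZNF768, with 8747 and 2183 reads, and ZNF76 were level at 0.99-fold and 0.96-fold. ZNF768 had 7413 of its FH-DHX36-E335A reads outside the 4 categories and 1509 of its FH-DHX36 reads in the 3'UTR. ZNF703 was 2.26-fold higher in FH-DHX36.

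Members with known roles were bound in differing regions. Of 8 genes linked to RNA or ribosomes, 7 were members, where 234 of 529 ZNF rows were. The exception was ZNF385A with 27 FH-DHX36-E335A reads. This and the other role lists were drawn up with earlier results known, so such counts are a description only. ZNF622, a factor of large ribosomal subunit maturation, had 436 CDS and 84 3'UTR reads in FH-DHX36-E335A and 426 and 0 in FH-DHX36. ZNF598, the ubiquitin ligase that marks collided ribosomes, had 133 and 37, and 182 and 0. Both were thus mostly CDS-bound. ZNF207, a mitotic and splicing factor, had 236 and 1701 with a further 1708 outside the 4 categories, and 77 and 0. ZNF638, a nuclear RNA-binding protein, had 130 CDS reads in FH-DHX36-E335A and none in FH-DHX36, and ZNF346, which binds double-stranded RNA, had 80 3'UTR reads and no FH-DHX36 cluster.

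ZNF593, another ribosome maturation factor, had 2182 FH-DHX36-E335A reads, all outside the 4 categories, and 234 FH-DHX36 reads, all in the 3'UTR. Its recovered abundance of 418.9 was far above the member median, and its NXPM of 0.60 and 0.26 was low. Of the Z3 complex, which represses transcription, ZNF687 and ZNF592 were members and ZNF532 had no cluster in either line. ZNF687 had 185 CDS and 1377 3'UTR reads in FH-DHX36-E335A and 200 and 32 in FH-DHX36, and ZNF592 had 28 and 382, and 0 and 17. Neither ZNF91 nor ZNF93, which silence transposable elements, was a member, with 13 FH-DHX36 reads on ZNF91 alone.

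Of 14 regulators of transcription and chromatin, a list drawn up with results known, 11 were members, where 234 of 529 ZNF rows were. All 11 had an FH-DHX36 cluster, against 67.9% of all members. They had a median of 2159 FH-DHX36-E335A reads, and 95.2% of the members with at least 1000 reads had such a cluster. Their median NXPM was 87.4 in FH-DHX36-E335A and 23.8 in FH-DHX36, against 16.9 and 7.49 over all members. The list includes ZNF146 and ZNF711, which ranked 1 and 2 among the members by FH-DHX36-E335A reads. Its counts and medians thus describe the genes chosen and are no result about such regulators. ZNF217, an oncogene product, had 2037 of 2159 FH-DHX36-E335A reads and 215 of 215 FH-DHX36 reads in the 3'UTR. ZNF281, a pluripotency-linked factor, had 240 CDS and 1423 3'UTR reads, but 150 and 0 in FH-DHX36. ZNF143, which activates promoters of small RNA genes, had 279 and 76, and 57 and 0. ZNF652 had 1143 of 2089 reads outside the 4 categories. ZNF148 had 630 and 75 reads in all, ZNF219 448 and 200 and ZNF384 1470 and 199. ZNF423, ZNF521 and ZNF589 were below the minimum, with 0, 0 and 42 FH-DHX36-E335A reads.

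Reads outside exons were the remainder. Introns held 3.73% of the members' FH-DHX36-E335A reads and 6.45% of their FH-DHX36 reads, and other annotations held 17.1% and 12.9%. In the other genes introns held 4.42% and 7.97%, and other annotations 21.7% and 17.0%. Over 50% of FH-DHX36-E335A reads lay in introns for 13 members (5.56%, and 3.72% of the other genes). ZNF529 had the most of these, with 2214 of 3859. Over 50% lay outside the 4 categories for 24 members (10.3%, and 13.1% of the other genes), among them ZNF768, ZNF593 and ZNF428. No exonic read was listed for 8 members (3.42%, and 3.09%).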

How the data were processed

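The deposited table gives, per gene and annotation category, crosslinked read counts that the authors left without normalization, numbers of PARalyzer clusters, and NXPM, a score in which the authors scaled reads to depth and took out RNA abundance. Read alignment was to hg19, and PARpipe with its defaults made the clusters, which GENCODE v19 then placed in categories, according to the published methods. Base calling with bcl2fastq 2.17.1 is named in the submitters' processing notes. Replicates were pooled, so no test was run. Members and gene lists were chosen with earlier results of these data known.

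Shares were computed in Python 3 with pandas, with 95% Wilson intervals that cover counting error only, since PCR copies are not independent molecules. RNA abundance was recovered as depth-scaled reads over NXPM, minus 0.001. Regional NXPM of every member with reads lay within 0.1% of the reads scaled to that region. Lengths, sequences, fingers and KRAB boxes came from canonical transcripts of GENCODE release 44 on GRCh37, a later annotation on the authors' build, with the stop codon counted in the CDS. They matched 231 members, all but ZNF720, ZNF714 and ZNF286B, and the coding sequence was complete in 229. Fingers were to be counted in RefSeq proteins but were counted in translated transcripts. Motif and share code was tested on simulated data, but the KRAB box pattern was not.

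Named genes were the top 10 by reads in each PAR-CLIP, the top 5 by NXPM at an abundance of at least 1, the top 5 by CDS and by 3'UTR reads, the top 5 by CDS and 3'UTR share with at least 500 exonic reads, 3 on each side of the minimum, members at least 2-fold higher in FH-DHX36 with at least 100 reads there, and lists by role. Other genes named were chosen after their values were seen.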

Additional observations from a re-analysis of the deposited data

How the results depend on the processing

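The CDS share of exonic crosslinked reads for FH-DHX36-E335A was 18.3%, and it was 25.9% as the median per gene, 24.98% without ZNF146, 18.5% and 17.9% at minimums of 50 and 200 reads, 14.5% of all reads, 17.5% with all zinc finger family names and 18.1% among members with a cluster in both. For FH-DHX36 it was 46.1%, and it was 32.6% as the median per gene, 36.97% without ZNF561, 46.9% at a minimum of 200, 37.2% of all reads and 42.8% with all family names. In each PAR-CLIP the CDS share of clusters stayed within its interval at both minimums. The observed over expected FH-DHX36-E335A share was 1.13 for the CDS with the longest transcript, and 0.45 for the CDS and 1.43 for the 3'UTR with reads. Median NXPM moved to 23.2 and 18.2 (FH-DHX36-E335A and FH-DHX36) among members with a cluster in both, and to 23.1 and 11.5 at a minimum of 200, from 16.9 and 7.49. At least 2 FH-DHX36 clusters were listed for 97 members, and no such count is given for the other genes. Among members with a cluster in both, the median log2 ratio was 0.29 in place of 1.24, and 52 in place of 127 were at least 2-fold higher in FH-DHX36-E335A. These 52 are 32.7% of such members, against 31.3% of such other genes. No paired analysis was possible because the columns hold 1 pooled value per line and carry no replicate, and replicates could not be left out for the same reason. Precision is limited by the lower number of FH-DHX36 reads.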
